A study of Mus musculus with 8 samples.

Results

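The kidney epithelial transcription factors described here are 8 genes, Hnf4a, Pax2, Pax8, Esrra, Esrrg, Ppargc1a, Tfcp2l1 and Emx1, chosen by name out of 19057 genes named on the array. They were read by 15 probes, all found by the gene symbol of the platform annotation. The RNA came from kidneys of male adult C57/bk mice, taken 7 days after unilateral ureteral obstruction (UUO), an operation that blocks the outflow of urine from 1 kidney and damages its tubules. One group received a control oligonucleotide (control antimiR) and the other an oligonucleotide directed at miR-214 (anti-miR-214), a microRNA, with 4 animals and 1 bead array per animal in each group. All 8 samples carry the UUO label, and unobstructed kidneys were not analysed here. Both groups therefore share the operation.

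Several of these factors set or hold the identity of tubule cells. Hnf4a is a nuclear receptor that in mouse is needed for the mature proximal tubule, the segment that recovers most filtered solute. Pax2 and Pax8 are paired-box factors that start the nephron lineage, and Pax8 stays on in adult tubules. Esrra and Esrrg are estrogen-related receptors, which bind DNA without a known natural ligand and drive genes of mitochondrial energy production together with the coactivator PGC-1alpha, the product of Ppargc1a. Tfcp2l1 is a grainyhead-family factor of the distal nephron and collecting duct, where in mouse it is needed for intercalated cells. Emx1 is a homeobox factor known mainly from the developing cerebral cortex. The oligonucleotide given to the mice was aimed at miR-214, whose mature sequences, from RefSeq (GRCm38.p6), are shown because they define the treatment, with the seed (bases 2 to 8) in capitals.
mmu-miR-214-3p: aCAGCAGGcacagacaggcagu
mmu-miR-214-5p: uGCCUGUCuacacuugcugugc

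After anti-miR-214 Hnf4a was the 1 gene of the 8 to pass the test, 1.48-fold higher. Of the 7 genes with a tested probe, 6 had a log2 change above 0 on their brightest probe and 1, Esrrg, below 0. Over all named genes 59.5% of the brightest probes lay above 0. The 6 tested genes other than Hnf4a did not pass. The log2 changes ran from -0.36 (Esrrg) to 0.57 (Hnf4a), with a median of 0.38 against 0.08 for the brightest probes of all 10734 named genes tested. A probe passed when limma's adjusted p was under 0.05 over all 18601 tested probes, those with a detection p under 0.05 on at least 4 of the 8 arrays. By this rule 22.3% of the brightest probes of named genes were called, 12.3% as higher and 9.93% as lower, so 1 call among 7 genes is no more than the share over the whole array. Among the 10 tested probes of these genes, the groups did not overlap for 1, against 28.9% of all tested probes, and 4 had an unadjusted p under 0.05, against 40.2% of all tested probes. A change in a bulk kidney sample cannot be told apart from a change in the share of the cells that express the gene.

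**Figure D1:**
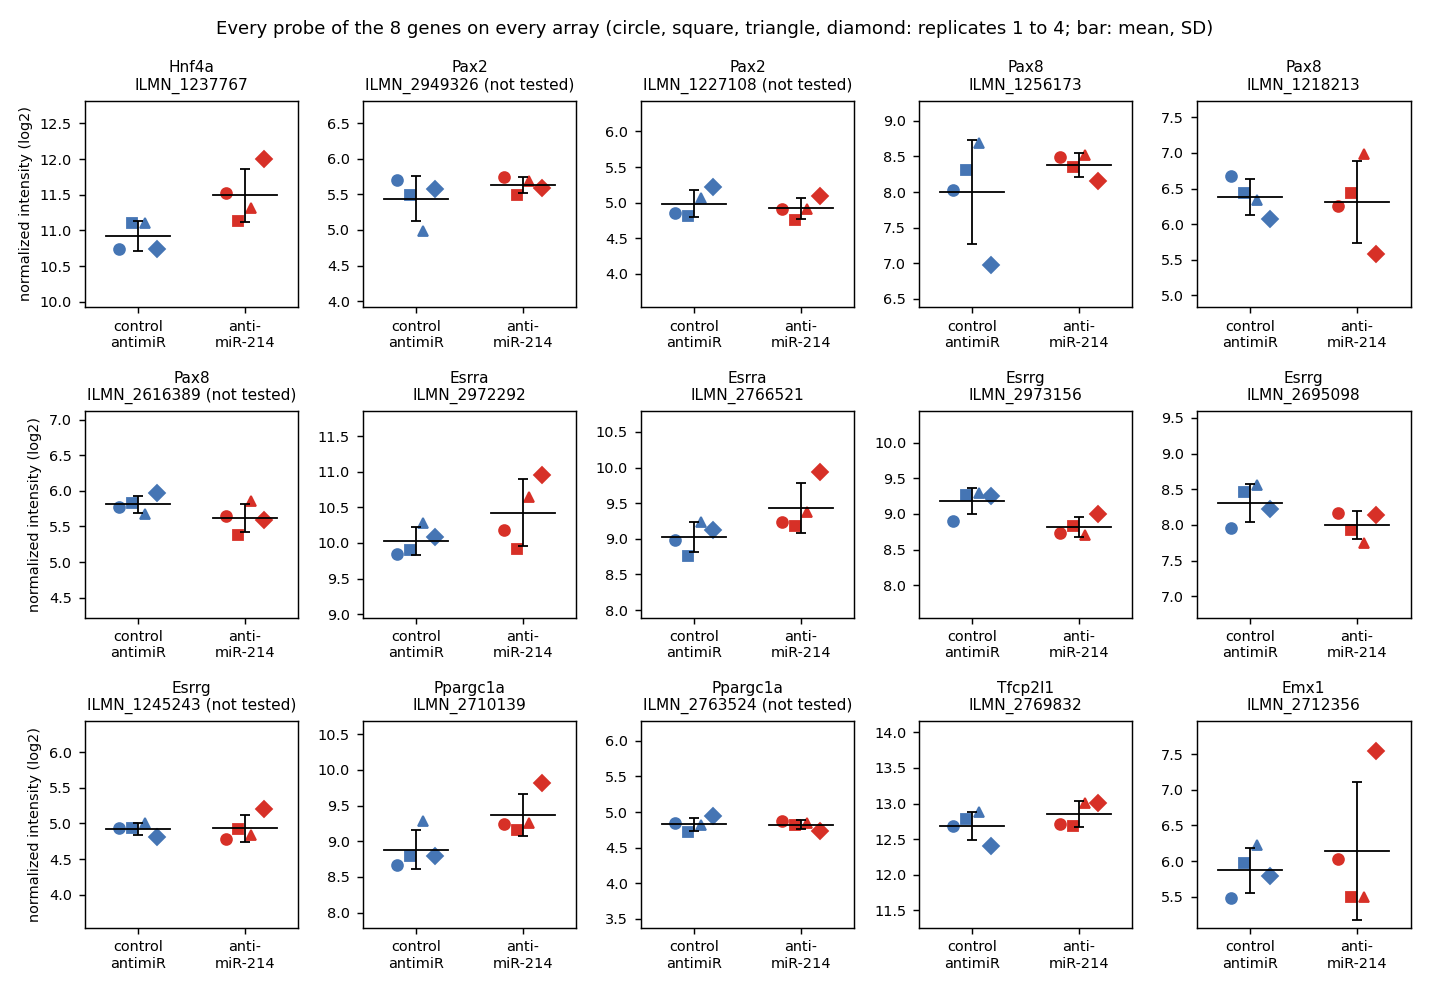
Normalized log2 intensity of each of the 15 probes on each of the 8 arrays, with control antimiR in blue, anti-miR-214 in red, the mean as a horizontal bar and the SD as a vertical bar (n = 4 per group). All panels span the same log2 distance on the vertical axis, and the anti-miR-214 points lie wholly above the control points for Hnf4a alone.

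Across the whole array 4761 of 18601 tested probes passed, or 25.6%, with 2195 (11.8%) higher and 2566 (13.8%) lower. Fewer probes were detected on every anti-miR-214 array (37.2% to 39.2%) than on any control array (41.8% to 43.1%). The probe gap, defined here as the mean log2 difference between the dimmer probes of a gene and its brightest one, was also lower on every anti-miR-214 array, at -1.88 to -1.79 against -1.77 to -1.70. Both measures move with the group, so a fit with the probe gap as a covariate can hardly tell the gap from the group. Their part in the results was not tested otherwise. Slides were read from the chip numbers in the array names of the deposited table, since the labels give no batch. By these numbers, replicates 1 to 3 of each group shared slide 1 and replicate 4 of each group lay on slide 2.

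Hnf4a rose after anti-miR-214 on its single probe (ILMN_1237767). The log2 intensity was 10.74, 11.11, 11.11 and 10.74 in control replicates 1 to 4 and 11.52, 11.14, 11.31 and 12.002 in anti-miR-214 replicates 1 to 4. Every anti-miR-214 kidney lay above every control kidney, though anti-miR-214 replicate 2 cleared the highest controls by less than any other and replicate 4 stood highest. The means were 10.92 ± 0.21 and 11.49 ± 0.37 (SD, n = 4), a log2 change of 0.57 (SE 0.19, 95% interval 0.16 to 0.98, limma adjusted p = 0.0465). The call lay at the threshold. It was lost when any 1 array other than anti-miR-214 replicate 2 was left out (adjusted p = 0.0602 to 0.107), and the log2 change was 0.34 on slide 1 alone (adjusted p = 0.174), with 1.26 between the single arrays of slide 2.

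Hnf4a is transcribed from alternative start sites, and which of these transcripts its probe reads was not examined. The RefSeq windows (GRCm38.p6, plus strand) around its start sites are shown because Hnf4a is the member that passed, with 250 bases before each start in lower case and the 50 bases from the start on in capitals. In adult mouse kidney the downstream promoter is the one known to be active.
Hnf4a upstream start, chr2:163506607-163506906: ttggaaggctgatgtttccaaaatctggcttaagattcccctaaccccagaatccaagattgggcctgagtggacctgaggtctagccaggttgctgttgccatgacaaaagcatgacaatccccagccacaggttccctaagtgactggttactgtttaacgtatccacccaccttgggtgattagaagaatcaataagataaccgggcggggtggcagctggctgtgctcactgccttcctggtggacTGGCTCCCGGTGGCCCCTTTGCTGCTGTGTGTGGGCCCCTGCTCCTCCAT
Hnf4a downstream start, chr2:163546905-163547204: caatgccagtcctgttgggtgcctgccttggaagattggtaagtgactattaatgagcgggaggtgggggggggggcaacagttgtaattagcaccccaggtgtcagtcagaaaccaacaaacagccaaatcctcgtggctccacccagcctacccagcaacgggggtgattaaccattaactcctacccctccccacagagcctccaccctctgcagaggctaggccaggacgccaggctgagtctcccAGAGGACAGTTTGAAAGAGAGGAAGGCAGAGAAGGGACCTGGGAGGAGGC
All 8 genes had such windows, 14 in all. They were searched on both strands for the letters TNAAGGTCA (the estrogen-related receptor element), CAAAGTCCA (an HNF4 element), GTCACGC (a Pax paired-domain element) and CCAG repeated after 6 bases (a Tfcp2l1 element). None of the 14 windows held any of them. Of all 32851 windows of the same length, 1.28% held the estrogen-related receptor element, 0.475% the HNF4 element, 2.09% the Pax element and 3.44% the Tfcp2l1 pair.

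The genes whose profile over the 8 arrays was closest to that of Hnf4a were Glis1, Tcaim and Klhl3. Likeness was the root-mean-square log2 difference after each profile was centred on its control mean, and it was 0.0616 for Glis1, 0.0943 for Tcaim and 0.0962 for Klhl3, against a median of 0.483 over 10733 other genes. Glis1 encodes a zinc finger transcription factor, and Klhl3 an adaptor of a ubiquitin ligase that acts on salt transport in the distal tubule. Glis1 had a log2 change of 0.62 and passed (limma adjusted p = 0.0303), while Tcaim (0.56, adjusted p = 0.0534) and Klhl3 (0.51, adjusted p = 0.0683) did not. Changes near that of Hnf4a follow from the choice of these genes by likeness over both groups.

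Few genes of the proximal tubule, where Hnf4a acts, passed on their brightest probe. Of 20 tested genes 1 was higher, 0 were lower and 19 missed the threshold, 1 of these (Rida) with an unadjusted p under 0.05. The share called was 5%, against 22.3% of all named genes. The median change of the list was 0.12 against 0.08 for all named genes, on the log2 scale. Over 19 alternatives the list median ran from -0.23 to 0.78. Dimmer probes passed for Slc2a2 (2 of 2, at -0.97 and -0.66) and Slc13a3 (1 of 2, at 0.65 and 1.05). The sulfate transporter gene Slc13a1 rose by 0.61 (SE 0.19, limma adjusted p = 0.0382). Rida was at -0.44 (adjusted p = 0.0915), with its other 3 probes between -0.63 and -0.03 and 1 of them passing, and the urea cycle gene Ass1 at 0.64 (adjusted p = 0.261). The summed normalized intensity of the 20 genes was 51730 to 95565 in control and 61042 to 116155 in anti-miR-214 kidneys, so the groups overlapped. Anti-miR-214 replicate 4 had the highest sum and the highest Hnf4a. Control replicate 4 had the next highest sum (95565) with an Hnf4a value at the low end (10.74). Control replicate 1 had the lowest sum (51730) and the lowest Hnf4a (10.74). Replicate 4 of each group lay on slide 2. The part of the proximal tubule content in the Hnf4a result was not tested.

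Esrra, read by 2 probes, lay above the control mean in most anti-miR-214 kidneys without passing. On the brighter probe (ILMN_2972292) the log2 intensity was 9.85, 9.91, 10.28 and 10.08 in control replicates 1 to 4 and 10.18, 9.92, 10.65 and 10.96 in anti-miR-214 replicates 1 to 4. Anti-miR-214 replicates 3 and 4 were above every control, and replicates 1 and 2 lay within the control range. The log2 change was 0.40 (SE 0.21, 95% interval -0.07 to 0.86, limma adjusted p = 0.185). It was 0.22 without anti-miR-214 replicate 4, 0.02 without replicates 3 and 4 of that group, and 0.24 on slide 1 alone. The other probe (ILMN_2766521) gave 0.41 (SE 0.18, 95% interval 0.02 to 0.80, adjusted p = 0.112), with control kidneys between 8.76 and 9.24 and anti-miR-214 kidneys between 9.18 and 9.94, and 0.24 without anti-miR-214 replicate 4. The probes differed in their change by 0.01 (SE 0.14, limma adjusted p = 0.956).

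Esrrg, another estrogen-related receptor gene, was lower in all 4 anti-miR-214 kidneys than the control mean and missed the threshold. On its brightest probe (ILMN_2973156) the log2 intensity was 8.91, 9.27, 9.30 and 9.25 in control replicates 1 to 4 and 8.73, 8.84, 8.70 and 8.9999 in anti-miR-214 replicates 1 to 4. Only control replicate 1 fell into the range of the anti-miR-214 group. The log2 change was -0.36 (SE 0.13, 95% interval -0.65 to -0.08, limma adjusted p = 0.0599), and it passed under 4 of 19 alternatives, among them the fit without control replicate 1 (-0.46, adjusted p = 0.0331). The second tested probe (ILMN_2695098) was at -0.31 (SE 0.16, adjusted p = 0.167), with control values of 7.96 to 8.56 and anti-miR-214 values of 7.74 to 8.17. The third (ILMN_1245243) was detected on 0 of 8 arrays and stayed between 4.78 and 5.20.

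The receptors lay in opposite directions, and the difference between them was computed on each array after the values had been seen, so it is given with no test. Neither gene passed, and the choice of a gene above 0 and a gene below 0 itself favours a separation of the groups. The mean log2 of the tested Esrra probes minus that of the tested Esrrg probes, set to 0 at the control mean, was 0.20, -0.32, 0.05 and 0.08 in control replicates 1 to 4. In anti-miR-214 replicates 1 to 4 it was 0.48, 0.38, 1.003 and 1.10. Every anti-miR-214 kidney stood above every control kidney. The mean was 0.74 (SD 0.36, n = 4) in anti-miR-214 kidneys and 0 (SD 0.22, n = 4) in control kidneys. Without anti-miR-214 replicates 3 and 4, which stood highest, the difference was 0.43.

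**Figure D2:**
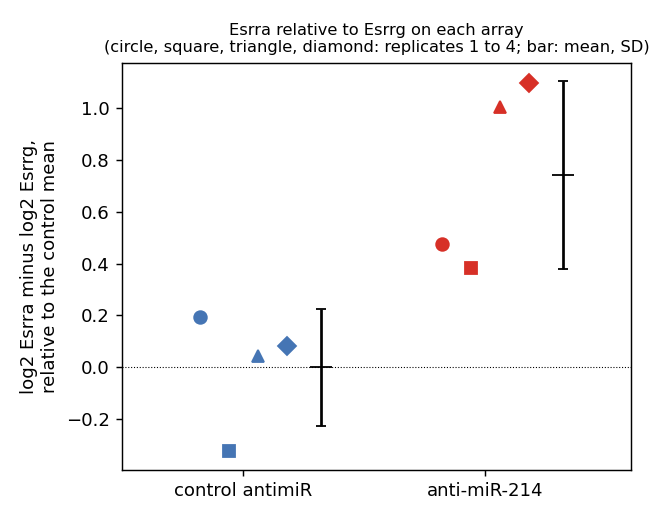
Mean log2 intensity of the tested Esrra probes minus that of the tested Esrrg probes on each array, relative to the control mean, for control antimiR (blue) and anti-miR-214 (red), with the mean and SD (n = 4) beside the points. The control kidneys lie between -0.32 and 0.20 and the anti-miR-214 kidneys between 0.38 and 1.10.

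Ppargc1a had the same sign of change as Esrra and lay above the control mean in all 4 anti-miR-214 kidneys but not past the threshold. The detected probe (ILMN_2710139) read 8.66, 8.79, 9.29 and 8.79 in control replicates 1 to 4 and 9.24, 9.16, 9.26 and 9.81 in anti-miR-214 replicates 1 to 4. Control replicate 3 alone lay inside the anti-miR-214 range, and anti-miR-214 replicate 4 stood apart from the rest of its group. The log2 change was 0.48 (SE 0.18, 95% interval 0.09 to 0.88, limma adjusted p = 0.0703), and 0.62 without control replicate 3 (adjusted p = 0.0352). On slide 1 alone it was 0.30. The second probe (ILMN_2763524) was detected on 0 of 8 arrays, at 4.71 to 4.94, and gives no change.

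Partners of the coactivator and of these receptors moved both ways. Of 14 tested genes 1 was higher, 2 were lower and 11 missed the threshold, a share of 21.4% against 22.3% of all named genes, with a median log2 change of -0.01. The retinoid X receptor gene Rxrb, whose product pairs with other nuclear receptors, rose by 0.54 on its brightest probe (SE 0.15, limma adjusted p = 0.0213), with its other probes at -0.06 and 0.07. Sirt1, a deacetylase that acts on PGC-1alpha, fell by 0.56 (SE 0.16, adjusted p = 0.0278). Tfam, which maintains and transcribes mitochondrial DNA, fell by 0.57 (SE 0.17, adjusted p = 0.0306), and its other probe was at -0.61. The third receptor of the family, Esrrb, was at 0.68 (adjusted p = 0.104). Prkaa2 missed the threshold on its brightest probe (-0.38, adjusted p = 0.0809), but its other probe passed in the opposite direction at 1.64. Ppard likewise read -0.47 on its brightest probe and 0.33 on its other one, without passing on either.

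Mitochondrial genes known as targets of the estrogen-related receptors, mostly from heart and muscle, seldom passed. Of 16 tested genes 1 was higher, 1 was lower and 14 missed the threshold on their brightest probe. The share called was 12.5%, against 22.3% of all named genes. The median log2 change was 0.08, with 12 genes above 0 and 4 below, where 59.5% of all named genes lay above 0. Dimmer probes passed for Slc25a20 (-1.24, with its brightest at -0.28) and Cycs (1 of 2, at 0.25 and 0.59, with its brightest at 0.01). Pdk4, a kinase that shuts off pyruvate oxidation, fell by 1.15 (SE 0.24, limma adjusted p = 0.0081). Cpt1b, a carnitine acyltransferase of fatty acid oxidation, rose by 0.52 (SE 0.18, adjusted p = 0.0498), and the fatty acid binding protein gene Fabp3 lay at 0.63 (adjusted p = 0.0508). The summed intensity of the list was 44861 to 59672 in control and 47106 to 61474 in anti-miR-214 kidneys.

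Pax8 was measured by 3 probes, which did not share a pattern. The brightest (ILMN_1256173) read 8.03, 8.31, 8.68 and 6.98 in control replicates 1 to 4 and 8.496, 8.36, 8.52 and 8.16 in anti-miR-214 replicates 1 to 4. The control group spanned the whole anti-miR-214 range, and control replicate 4 was the lowest of the 8 kidneys. The log2 change was 0.38 (SE 0.29, 95% interval -0.27 to 1.03, limma adjusted p = 0.356), 0.04 without control replicate 4 (adjusted p = 0.879) and 0.61 without control replicate 3. A second probe (ILMN_1218213), annotated to another transcript record, was at -0.07 (SE 0.25, adjusted p = 0.862), with anti-miR-214 replicate 4 the lowest at 5.59 and replicate 3 the highest at 6.98. The difference between the changes of these probes was -0.45 (SE 0.30, limma adjusted p = 0.309), where 28.1% of all 5307 such pairs passed. The third probe (ILMN_2616389) was detected on 3 control and 0 anti-miR-214 arrays and was not tested.

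Pax2 was not well above background. One probe (ILMN_2949326) was detected on 1 of 8 arrays, with log2 intensities of 4.98 to 5.70 in control and 5.49 to 5.75 in anti-miR-214 kidneys, and the other (ILMN_1227108) on 0 of 8 arrays. No change is given for this gene. Of the other Pax genes and patterning genes of the nephron 6 were tested and 0 passed, with a median log2 change of 0.00 (with 0 also under an unadjusted p of 0.05), and all 7 other Pax genes were among those not tested. The secreted factor genes Wnt4 (-0.41, limma adjusted p = 0.126) and Bmp7 (0.47, adjusted p = 0.211) and the urea transporter gene Slc14a2 (-1.02, SE 0.97, adjusted p = 0.458) had the smallest p-values of that list.

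Tfcp2l1 gave a signal brighter than 99.3% of all probes and its groups overlapped. The probe (ILMN_2769832) read 12.68, 12.78, 12.88 and 12.41 in control replicates 1 to 4 and 12.72, 12.68, 13.01 and 13.01 in anti-miR-214 replicates 1 to 4. Anti-miR-214 replicates 3 and 4 were above every control and the others were not. The log2 change was 0.17 (SE 0.14, 95% interval -0.14 to 0.48, limma adjusted p = 0.389). It was 0.076 without control replicate 4, 0.015 without anti-miR-214 replicates 3 and 4, and 0.41 with arrays scaled to the median of detected probes. Of 18 tested collecting duct genes 1 was higher, 1 was lower and 16 missed the threshold, at a median log2 change of 0.04. The sodium channel subunit gene Scnn1a rose by 0.88 (SE 0.26, adjusted p = 0.0338), the carbonic anhydrase gene Car2 fell by 1.08 on its brightest probe (SE 0.29, adjusted p = 0.0205) with its other probe at -0.05, and Kit was at -0.38 (adjusted p = 0.0642).

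Emx1 lay near the detection limit and its mean rested on 1 kidney. Its probe (ILMN_2712356) was detected on 3 control and 2 anti-miR-214 arrays. The log2 intensity was 5.49, 5.98, 6.23 and 5.79 in control replicates 1 to 4 and 6.03, 5.50, 5.49 and 7.54 in anti-miR-214 replicates 1 to 4. The single high value was anti-miR-214 replicate 4, and the 3 other treated kidneys lay within the control range. The log2 change was 0.27 (SE 0.39, 95% interval -0.59 to 1.13, limma adjusted p = 0.634), and -0.20 without that kidney.

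**Figure D3:**
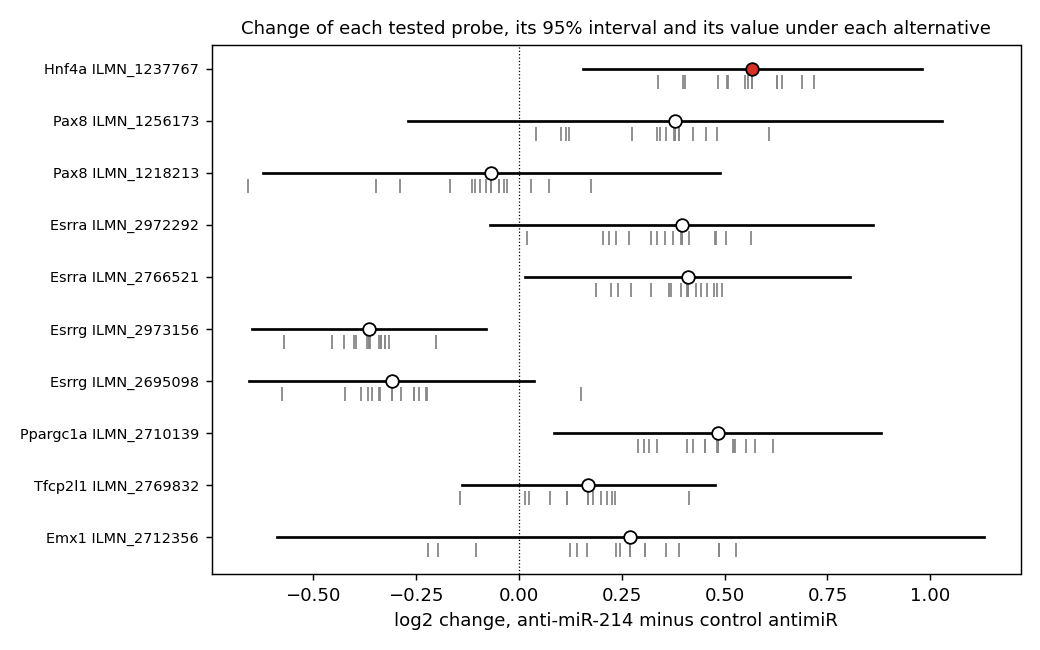
Log2 change of each of the 10 tested probes after anti-miR-214 (circle, filled where the adjusted p is under 0.05), its 95% interval (line) and its value under each alternative processing or set of arrays (ticks below the line). The Hnf4a values all lie above 0, from 0.34 to 0.72, and those of the brightest Esrrg probe all lie below 0, from -0.57 to -0.20.

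Among other transcription factors of the kidney 19 of 31 on the array were tested. On their brightest probe 0 passed in limma's fit, against 22.3% of all named genes. An unadjusted p under 0.05 was seen for 4 of the 19, against 40.2% of all tested probes, which include dimmer ones. Dimmer probes passed for Lhx1 (0.70), Tfap2b (2 of its 5 other probes, which ran from -1.03 to 0.52) and Elf3 (1 of 2, at -0.82 and 0.43). The median log2 change was 0.12. The 3 of smallest p were Osr2 at -0.39 (adjusted p = 0.0575, with its other probe passing at -0.57), the mesenchymal and podocyte factor Foxc1 at -0.74 (adjusted p = 0.0596) and Dach1 at 0.36 (adjusted p = 0.0656). With arrays scaled to the median of all probes, 5 of these genes were called lower.

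The markers of tubule epithelium did not pass, and most of those of fibroblasts fell. Of 9 tested epithelial markers 0 passed in limma's fit and 0 had an unadjusted p under 0.05, and their summed intensity was 47807 to 51527 in control and 44414 to 53190 in anti-miR-214 kidneys. The 3 of smallest p were Slc12a3 (0.38, adjusted p = 0.182, with its other 4 probes between -0.54 and 0.75), Krt18 (0.32, 0.209) and Cdh1 (0.16, 0.476), and Epcam was not tested. A gene was counted as fallen where its brightest probe passed as lower. Of 10 fibroblast and matrix genes 9 fell. Those of smallest p were Fn1 (-2.37), Col1a1 (-1.27) and Col3a1 (-1.16). The list sum was 20948 to 31355 in control and 12617 to 20925 in anti-miR-214 kidneys. Of 9 macrophage genes all lay below 0 and 3 fell, Lyz2 (-2.32, other probes -0.57 and -0.43), Mrc1 (-1.18) and Cx3cr1 (-0.96). Dimmer probes passed as lower for Adgre1 (-1.10 and -0.82) and Csf1r (-1.55). The macrophage sums were 17173 to 19968 and 7578 to 14226. Of 7 endothelial genes all lay below 0 and 3 fell, Pecam1 (-1.17, other probes -0.37 and -0.21), Plvap (-1.03) and Cdh5 (-0.97, other probe -0.27). The endothelial sums were 9474 to 13397 and 5424 to 10482. The podocyte genes Nphs1 (0.50) and Cdkn1c (0.43) rose among 4 tested, while Podxl did not pass at 0.36 (adjusted p = 0.0624). Of 5 adipose and muscle genes, with Adipoq, Plin1, Acta1 and Ckm not tested, the myoglobin gene Mb rose by 0.45, and Mylpf (0.36) and Fabp4 (-0.64) did not pass. Without anti-miR-214 replicates 3 and 4 the counts that fell were 1 fibroblast, 2 macrophage and 0 endothelial genes, and without replicate 3 alone 4 fibroblast genes. The part of these shifts in the values of the 8 transcription factors was not tested.

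**Figure D4:**
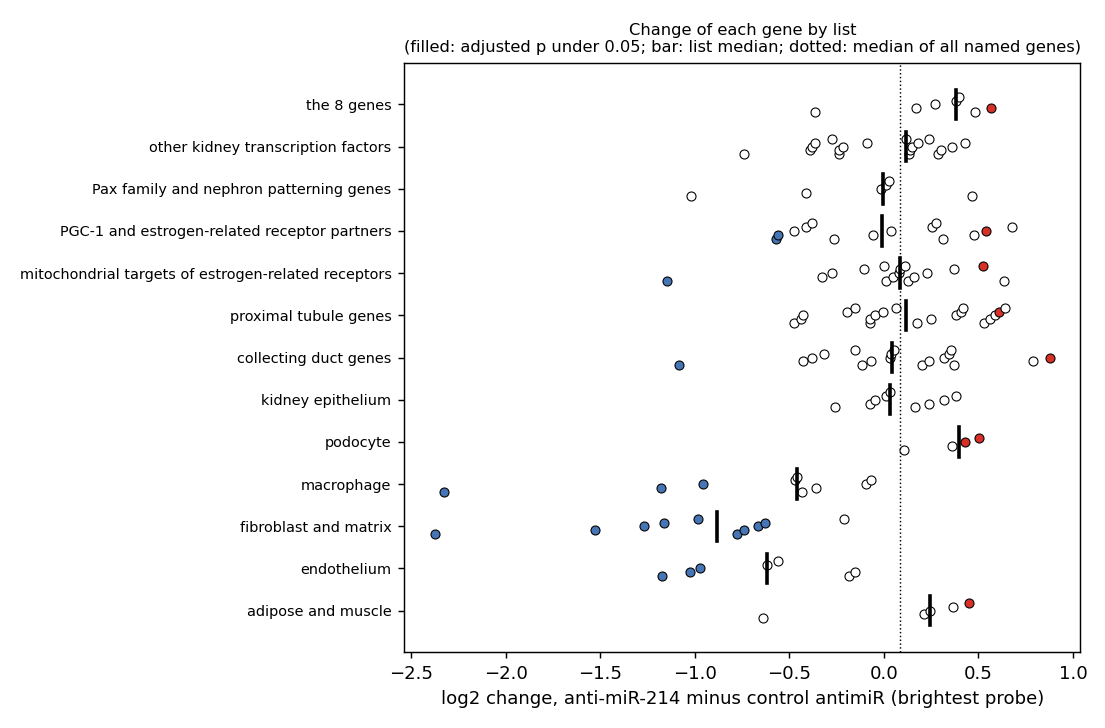
Log2 change of the brightest probe of each tested gene, by list, with genes past an adjusted p of 0.05 filled (red higher, blue lower), list medians as bars and the median of all named genes as a dotted line at 0.08. The 7 transcription factors with a tested probe and the tubule lists lie on both sides of the dotted line, and the fibroblast, macrophage and endothelial genes lie below 0.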

How the data were processed

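Total RNA of kidney was labelled with biotin as cRNA with an Illumina amplification kit, per the labels' protocols. The deposited table held, per the file headers, non-normalized mean bead intensities and a detection p-value for 45281 probes on 8 arrays. The authors' second table holds processed intensity values, with the same rank order, an upper quartile of 147.7 on every array, column medians of 20.2 to 20.4 and 29.0% to 29.2% of values below 0. The rank order fixes its direction, its scale is not stated, and the background and normalization methods are not given in the sources used here, so it served as an alternative.

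Normalization used neqc of limma 3.58.1 under R 4.3.3 (normexp background with negative controls inferred from detection p-values, offset 16, quantile normalization, log2). The offset shrinks changes of dim probes, and quantile normalization cannot show a shift common to the whole array. Probes were fitted with lmFit and eBayes, group as the only term, with Benjamini-Hochberg adjustment. A gene stands for its brightest probe. Named by platform annotation were 34885 probes with 1 symbol, 18 had several, and 0 symbols changed through RefSeq. Differences between probes of 1 gene were fitted the same way. Raw intensities of 2 arrays correlated at 0.992 or less. The fit was tested on simulated data. Arrays have no read depth, and their number limits precision.

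The 8 genes, the 12 lists beside them and the tests were chosen with earlier results of these data known. Genes named were all members, the 3 of smallest p in each list and the 3 profiles closest to a member that passed. Others, such as Esrrb, the filtered genes and genes named for their other probes, were chosen after their values were seen. So was the Esrra to Esrrg difference. Alternatives changed scaling, background, filter, slide, pairing, probe gap and arrays.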

Additional observations from a re-analysis of the deposited data

Results flagged for a closer look

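The brightest Esrrg probe (ILMN_2973156) had 1 control array away from the others. Control replicate 1 lay at 8.91 and the nearest control at 9.25, a gap of 0.886 of the group's range, above Dixon's 95% critical value for 4 samples. Ppargc1a (ILMN_2710139) had 1 such anti-miR-214 array, replicate 4 at 9.81 with the nearest at 9.26, a gap of 0.847 of the range. The check was made in 34 groups of 4 arrays, and chance alone marks about 5% of groups.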

How the results depend on the processing

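The log2 change of Hnf4a kept its direction under all 19 alternatives (0.34 to 0.72) and passed under 5 of them (adjusted p = 0.0251 to 0.654). It did not pass with arrays scaled to the median of all probes (0.48), with the authors' processed values (0.57), without a detection filter (0.57), on slide 1 alone (0.34), with the probe gap as a covariate (0.64) or without anti-miR-214 replicates 3 and 4 (0.40), and leaving out 1 array gave 0.40 to 0.69. The probe gap did not overlap between the groups, so the fit with it can hardly tell the gap from the group. With the replicate number as a block, Hnf4a kept its log2 change of 0.57 and missed the threshold (adjusted p = 0.0705). That block moved the count of calls from 4761 to 4598, and same-numbered arrays correlated at 0.02, 0.06, 0.05 and 0.20 in their deviations, so the numbers were not taken as pairs. The brightest Esrrg probe passed with arrays scaled to the median of all probes (-0.57), with normexp fitted on all probes and an offset of 50 (-0.32) and with the slide as a term (-0.36), and was at -0.46 to -0.32 without 1 array. Ppargc1a was at 0.34 to 0.62 without 1 array. Signs turned for Emx1 on slide 1 (-0.22), without anti-miR-214 replicates 3 and 4 (-0.10) and without 1 array (-0.20 to 0.49), for the second Pax8 probe on slide 1 (0.074) and without 1 array (-0.29 to 0.18), and with the probe gap for Tfcp2l1 (-0.14) and the second Esrrg probe (0.15). The difference of Esrra and Esrrg was 0.43 without anti-miR-214 replicates 3 and 4. Over all probes, 2549 passed on slide 1, 3 with the probe gap, 1399 without anti-miR-214 replicates 3 and 4 and 2963 to 4823 without 1 array, the fewest without anti-miR-214 replicate 3 and next without control replicate 2 (3030). Arrays scaled to the median of all probes gave 551 higher and 4509 lower, with a median log2 change of all tested probes of -0.15 in place of 0.05. The scaling to the median of detected probes was added after the data were seen, and its median was 0.08. Without 1 array, the lists of tubule genes, partners, targets and other kidney transcription factors gave 0 to 2 calls in each direction. The counts that fell were 4 to 9 fibroblast, 3 to 5 macrophage and 2 to 4 endothelial genes. Without both anti-miR-214 replicates 3 and 4, the partner list kept a count of 1 lower and 0 higher, and the target, proximal tubule and collecting duct lists had 0 calls. The causes of these shifts were not tested.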

Other observations

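Anti-miR-214 replicate 4 gave the highest of the 8 values on 6 of the 10 tested probes of these genes, counting Tfcp2l1, where it tied with replicate 3. It was highest or tied for 19.4% of all tested probes. Control replicate 1 gave the lowest value on 4 of the 10, against 11.95% of all tested probes.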
